A study of Mus musculus with 4 samples.

Results

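The genes described are 30 genes of cholesterol synthesis and of its control by the sterol regulatory element-binding proteins (SREBPs), taken as every non-control probe of the scanner files whose design name equals a listed gene. They had 55 of the 41174 probes on the array, and 30 of the 28482 names those probes carry. Of the 30 genes, 29 had a probe that cleared background, by the scanner's flag, on both arrays of either genotype and entered the comparison of 13062 genes. The exception was Scd1, a stearoyl-CoA desaturase, whose only probe cleared background on 0 of 4 arrays.

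The samples were CD4+CD8+ double-positive thymocytes, the stage of T cell development at which both co-receptors are present, sorted from untreated mice of 6 to 12 weeks. Mice of the USP8ff_CD4Cre group carried loxP-flanked alleles of Usp8, which encodes a deubiquitinase of endosomes, together with Cre driven by Cd4 regulatory sequences. Their USP8ff littermates, matched for sex, carried the same alleles without Cre, and no group carried Cre alone, so that Cre and the deletion cannot be told apart. Each genotype had 2 samples, each a pool of 2 mice, read on 4 one-colour arrays of 1 slide, so that the p-values rest on the spread among pools. Signals are given as log2 of the processed signal over its array's 75th percentile, replicates 1 and 2 of each genotype in that order. Usp8 had signals of -1.03 and -1.23 in USP8ff_CD4Cre, against -0.23 and -0.40 in USP8ff, or 56.9% of the USP8ff level, with an adjusted p of 0.60 in limma, and whether its probe lies in the deleted stretch is not stated in the labels. All 9 fixed markers of double-positive thymocytes were measured, Cd4, Cd8a, Rag1 and Dntt among them. Their summed linear signal, in units of the 75th percentile of the array, was 1741 and 1762 in USP8ff_CD4Cre, against 1655 and 1731 in USP8ff. Dntt and Cd8b1 make up most of that sum. The median difference of the 9 was -0.063, and 6 of them had negative differences. The arrays did not overlap for 4 lower in USP8ff_CD4Cre, against 16.3% of all genes. They did not overlap for 2 that were higher, Cd8b1 and Dntt, against 24.3% of all genes. Rag2, at -0.33, had an unadjusted p of 0.050 and an adjusted p of 0.67 in limma. Of the 6 adipocyte and 4 erythroid markers, 0 passed the filter on dim probes.

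Cholesterol is built from acetyl-CoA through mevalonate, isoprenoids, squalene and lanosterol in a long chain of enzymes. When sterol in the endoplasmic reticulum is low, the escort protein SCAP carries the SREBP precursors to the Golgi for cleavage, and the released factors raise the transcription of nearly every enzyme of the chain. When sterol is high, the INSIG proteins hold SCAP back, and oxysterols acting on liver X receptors raise the efflux pumps ABCA1 and ABCG1 instead. In developing T cells the pathway is known to follow growth and division, since dividing cells must make membrane.

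Between genotypes, none of these genes passed the test. In limma, with Benjamini-Hochberg adjustment over all genes, 0 of 29 passed an adjusted p of 0.05, where 0% of all genes did (0 of 13062; smallest adjusted p 0.29), and the smallest adjusted p among the 29 was 0.67. At an unadjusted p under 0.05 stood 1 of the 29, Tmem97, against 7.43% of all genes. It was higher, as were 3.97% of all genes at that p, and 0 of the 29 were lower, against 3.46%. The median log2 difference, USP8ff_CD4Cre minus USP8ff, was 0.069 over the 29 genes and 0.021 over all genes. Positive differences were found for 18 of 29 genes, against 54.8% of all genes. The arrays of the 2 genotypes did not overlap for 5 genes higher in USP8ff_CD4Cre (Insig1, Idi1, Ebp, Tmem97 and Fads2), against 24.3% of all genes, and for 3 lower (Sc5d, Dhcr7 and Abcg1), against 16.3%. The 5 and 3 of 29 are smaller shares than those of all genes. For 20 of the 29 genes the difference was under 0.2 in either direction.

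**Figure D1:**
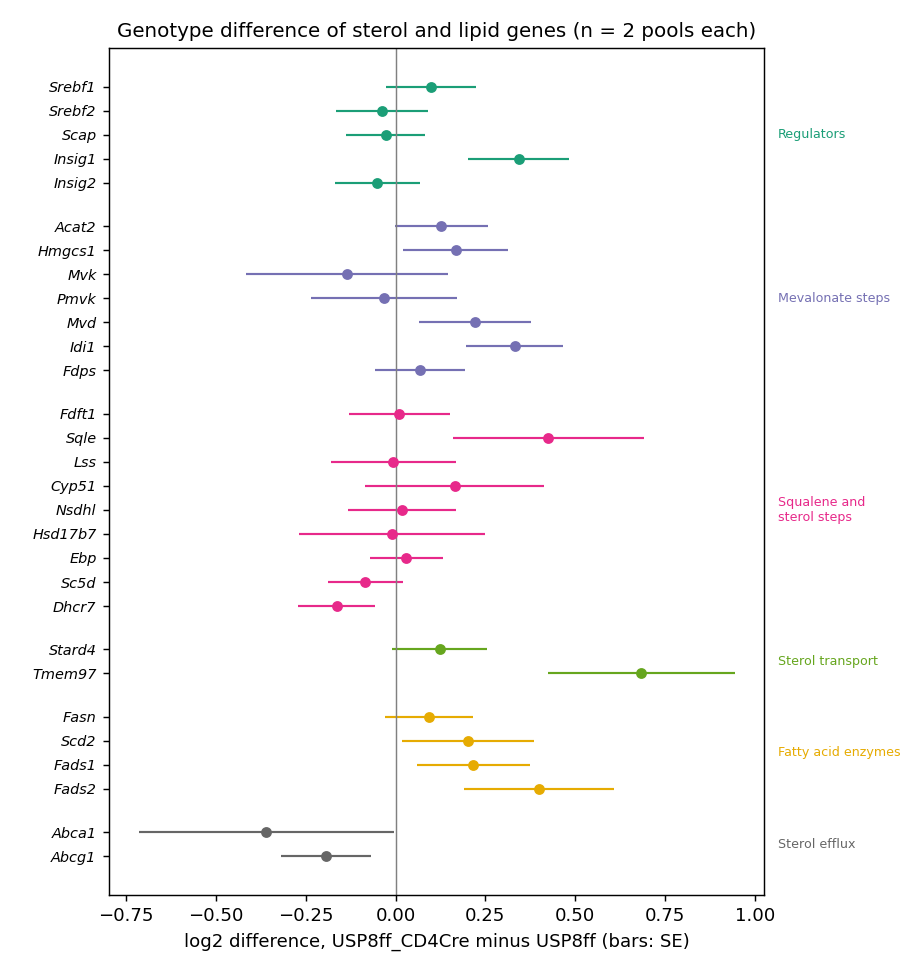
Log2 difference, USP8ff_CD4Cre minus USP8ff, of the 29 measured genes grouped by role, with bars for the standard error of the limma fit (2 pools a genotype). The values run between -0.36 (Abca1) and 0.68 (Tmem97), most bars reach or lie near 0, and 0 genes passed adjustment.

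A larger contrast in these genes lay between the 2 USP8ff pools. Signal in USP8ff replicate 2 was below that in replicate 1 for 22 of 29 genes, with a median log2 difference (replicate 2 minus replicate 1) of -0.27, while 48.8% of all genes were below and their median was 0.008. For 7 of the 29 genes replicate 2 was lower by over 0.5 (Sqle, Mvk, Hsd17b7, Cyp51, Tmem97, Fads2 and Abca1) and for 0 it was higher by as much, where 4.23% of all genes were that much lower and 4.27% that much higher. Just outside that limit were Pmvk at -0.49 and Scd2 at -0.45. USP8ff replicate 2 was the lowest of the 4 arrays for 19 of 29 genes, against 29.0% of all genes. The 2 USP8ff_CD4Cre pools lay closer together. Their median difference (replicate 2 minus replicate 1) was -0.048, 11 of 29 genes were higher in replicate 2, against 50.5% of all genes, and 18 were lower. Abca1 alone was lower by over 0.5, where 3.92% of all genes were, and 0 of the 29 were higher by as much, where 1.96% were. These counts describe 2 arrays and carry no test. In bulk samples fewer cells of a type and less RNA per cell cannot be told apart.

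**Figure D2:**
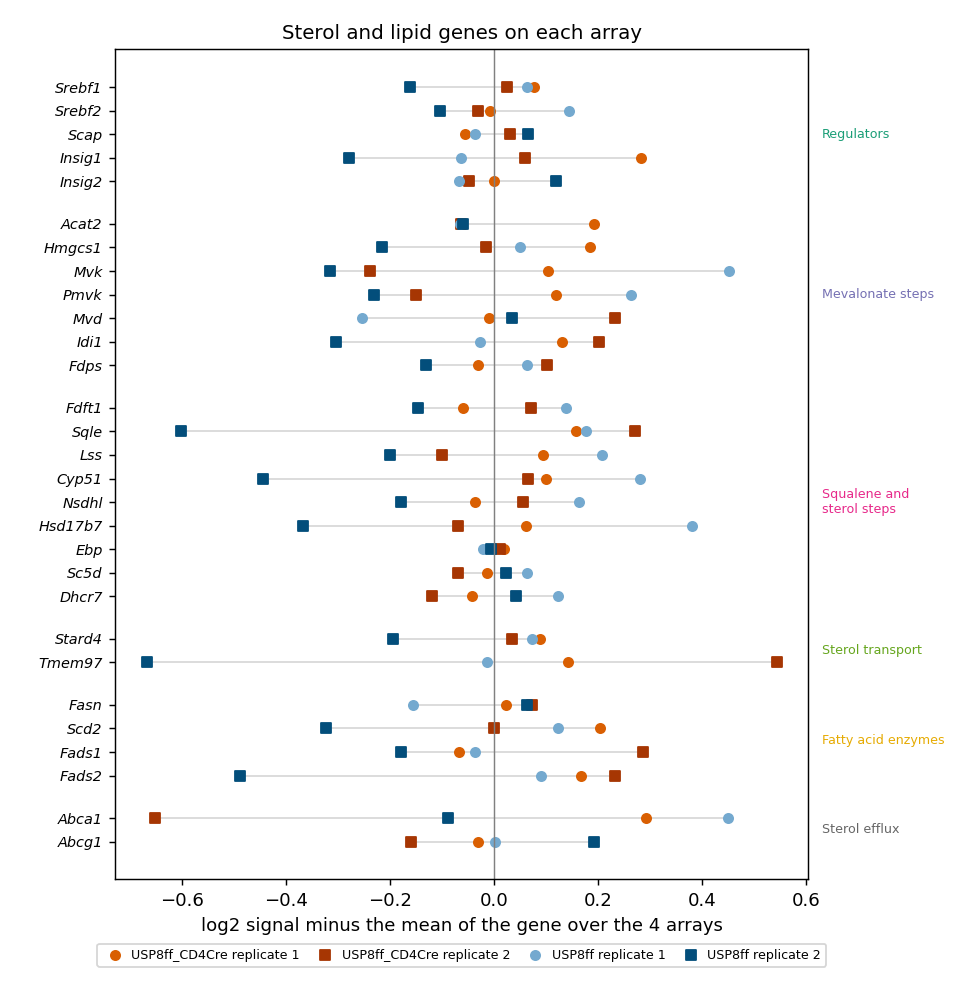
Log2 signal of each of the 29 genes on each array, as the deviation from its mean over the 4 arrays, with orange for USP8ff_CD4Cre and blue for USP8ff (circles for replicate 1, squares for replicate 2). The dark blue squares of USP8ff replicate 2 lie lowest for 19 genes, Tmem97 and Sqle the farthest out, while Scap, Insig2, Acat2, Mvd, Ebp, Fasn and Abcg1 read higher there than in USP8ff replicate 1.

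These genes had 20 further kept probes that did not stand for a gene in these counts, and 15 of them read lower in USP8ff replicate 2 than in replicate 1. Among the 7 genes over 0.5 lower, only Hsd17b7, Mvk and Cyp51 had such probes, 4 in all, and all 4 read lower. Sqle, Tmem97, Fads2 and Abca1 had a single probe each and so no further reading. Hsd17b7 differed by -0.55 on its further probe, Mvk by -0.54 and Cyp51 by -0.50. A last Cyp51 probe, counted among the 4, was well above background on 3 arrays. It was too dim for a difference, its signal in USP8ff replicate 2 lying under the lowest that cleared background there. An exception was a probe of Nsdhl that was well above background on 3 arrays and read 0.81 higher in replicate 2, while the other 3 Nsdhl probes read lower. Between genotypes, 14 genes had several kept probes, and for 5 of them the sign of the difference was not the same on every probe. The dimmer genes differed most. Of 9 genes with a mean level below 0 on the log2 scale, 5 were over 0.5 lower in replicate 2 (median -0.58), where 7.36% of all 5071 genes that dim were (median -0.0050). Of 10 genes with a level from 0 to 3, 2 were (median -0.23), where 3.09% of 5073 genes were. Of 10 genes above 3, 0 were (median -0.15), where 0.754% of 2918 genes were. With quantile normalization, which gives every array the same distribution of signals, the median over the 29 genes was -0.28.

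**Figure D3:**
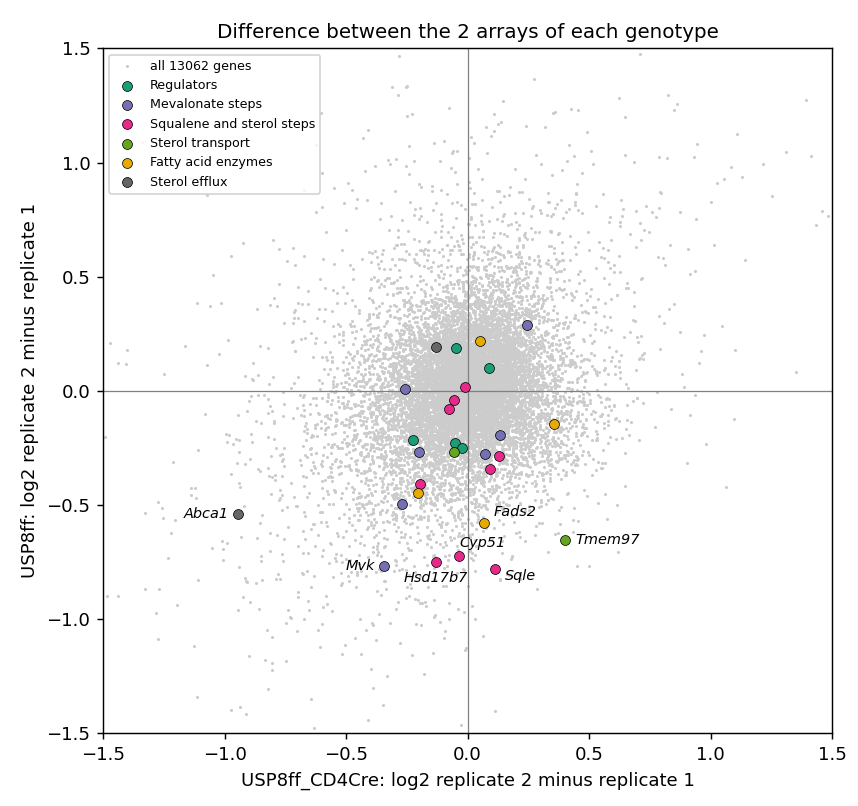
Log2 difference between the arrays of 1 genotype (replicate 2 minus replicate 1), for USP8ff_CD4Cre on the horizontal and USP8ff on the vertical axis. Grey points are all 13062 genes (72 lie outside the axes) and coloured points the 29 sterol and lipid genes, most of which lie below the horizontal line but close to the vertical one.

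The DNA before the start sites of these genes is shown because it is where factors of the pathway bind, and 7 of the genes stood lower together in USP8ff replicate 2. RefSeq promoter windows (GRCm38.p6, from 250 bases before to 50 after the start) matched 22 of the 30 genes, with 30 windows, and not Fdft1, Sqle, Fdps, Stard4, Scd1, Scd2, Fads1 or Abcg1. On both strands, the sterol regulatory element written as TCACNCCAC was found in 1 of the 22, where 1.44% of 27025 genes with a window hold it, the box CCAAT bound by NF-Y in 18, where 41.1% do, and the box GGGCGG bound by SP1 in 20, where 38.2% do. NF-Y and SP1 are known to act beside SREBPs at sterol genes. A match is a description of these letters only. The single element lay 137 bases before the start of Hmgcs1 (chr13:119690174-119690262, plus strand), and the stretch below has it in capitals, with a CCAAT box in capitals at its left edge, read there as ATTGG.
Hmgcs1: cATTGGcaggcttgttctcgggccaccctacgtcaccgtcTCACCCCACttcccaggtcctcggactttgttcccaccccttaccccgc
The next stretches are the 120 bases before the start of the 6 matched genes among the 7 that were over 0.5 lower in USP8ff replicate 2, with CCAAT (or ATTGG) and GGGCGG (or CCGCCC) in capitals. They lie at chr5:114444149-114444268 (plus strand), chr5:4104698-4104817, chr1:169969206-169969325, chr11:78550736-78550855, chr19:10101504-10101623 and chr4:53159896-53160015 (minus strand for these 5).
Mvk: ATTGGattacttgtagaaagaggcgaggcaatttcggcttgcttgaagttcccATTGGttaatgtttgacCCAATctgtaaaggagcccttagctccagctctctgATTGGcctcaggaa
Cyp51: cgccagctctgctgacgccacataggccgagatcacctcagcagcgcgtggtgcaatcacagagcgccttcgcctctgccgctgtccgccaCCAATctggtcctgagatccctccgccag
Hsd17b7: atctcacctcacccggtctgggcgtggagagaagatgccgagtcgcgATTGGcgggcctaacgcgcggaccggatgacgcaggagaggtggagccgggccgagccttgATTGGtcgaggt
Tmem97: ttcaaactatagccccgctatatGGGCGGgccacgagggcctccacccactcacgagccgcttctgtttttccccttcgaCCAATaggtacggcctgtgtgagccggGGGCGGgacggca
Fads2: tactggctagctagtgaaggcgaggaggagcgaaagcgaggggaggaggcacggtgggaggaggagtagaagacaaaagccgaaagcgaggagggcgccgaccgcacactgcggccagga
Abca1: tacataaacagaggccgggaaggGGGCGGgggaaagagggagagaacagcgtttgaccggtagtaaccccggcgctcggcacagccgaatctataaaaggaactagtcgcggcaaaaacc
Of these 6 stretches, 4 hold a CCAAT box, where 21.3% of all 32851 windows do in the same 120 bases, and 2 hold a GGGCGG box, where 26.5% do. Mvk has 4 CCAAT boxes and Hsd17b7 has 2. Fads2 and Abca1, a desaturase and an efflux gene, have no CCAAT box in these 120 bases or in their whole windows. Over whole windows, 18 of the 22 matched genes hold the box, so that it is not particular to the genes lower in USP8ff replicate 2.

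The SREBP genes and their escort differed little between genotypes. Srebf1, which encodes the SREBP most tied to fatty acid synthesis, had 5.42 and 5.37 in USP8ff_CD4Cre, against 5.41 and 5.18 in USP8ff. Srebf2, which encodes the SREBP most tied to cholesterol synthesis, had 4.94 and 4.91, against 5.09 and 4.84 in USP8ff, with differences between genotypes of -0.039, 0.18 and 0.18 on its 3 kept probes. Scap, the escort gene, had 4.48 and 4.56 in USP8ff_CD4Cre, against 4.50 and 4.60 in USP8ff. The genotypes overlapped for all 3 genes, and each difference was under its standard error.

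Of the 2 INSIG genes, Insig1 had the larger difference. Insig1, itself a target of SREBPs and so a common readout of their activity, had -1.94 and -2.16 in USP8ff_CD4Cre, against -2.29 and -2.50 in USP8ff, so that its arrays did not overlap. The log2 difference was 0.34 ± 0.14 (SE), a ratio of 1.27, with an adjusted p of 0.67 in limma (mm9, chromosome 5, 28404246 to 28404305). Its other probe was well above background on 1 array only. Insig2, which is not driven by SREBPs in the same way, had 1.95 and 1.90 in USP8ff_CD4Cre, against 1.88 and 2.07 in USP8ff, with differences of -0.051 and -0.22 on its 2 kept probes.

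The early enzymes take acetyl-CoA to farnesyl pyrophosphate, the branch point to sterols, ubiquinone and protein prenylation. Of the 7 measured, 5 had positive and 2 negative differences (median 0.13), and 0 passed. Acat2, the cytosolic thiolase that starts the chain, had -1.23 and -1.49 in USP8ff_CD4Cre, against -1.49 and -1.49 in USP8ff. Hmgcs1, HMG-CoA synthase, had 3.26 and 3.06, against 3.12 and 2.86 in USP8ff. USP8ff_CD4Cre replicate 1 was the highest array for both genes, and the genotypes overlapped. Mvk, mevalonate kinase, had -1.19 and -1.54 in USP8ff_CD4Cre, against -0.85 and -1.61 in USP8ff, and Pmvk, the next kinase, had 3.17 and 2.90, against 3.31 and 2.82 in USP8ff. In both kinase genes the USP8ff pools were the highest and the lowest of the 4, on either side of the USP8ff_CD4Cre pools, and replicate 2 held 58.8% of the replicate 1 signal for Mvk and 71.0% for Pmvk.

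Mvd, mevalonate pyrophosphate decarboxylase, ran the other way within USP8ff. Its signals were 0.17 and 0.41 in USP8ff_CD4Cre, against -0.075 and 0.21 in USP8ff, a difference of 0.22 ± 0.16 with an adjusted p of 0.75 in limma. That difference was 0.077 without USP8ff replicate 1, 0.37 without USP8ff replicate 2, 0.34 without USP8ff_CD4Cre replicate 1 and 0.10 without USP8ff_CD4Cre replicate 2. It was the enzyme gene with the largest reading of USP8ff replicate 2 over replicate 1, at 0.29. Idi1, the isomerase that makes dimethylallyl pyrophosphate, had 2.13 and 2.20 in USP8ff_CD4Cre, against 1.97 and 1.69 in USP8ff, and the arrays did not overlap. Its difference was 0.33 ± 0.14, a ratio of 1.26, with an adjusted p of 0.67 in limma (mm9, chromosome 13, 8891386 to 8891445), and its dimmer probe gave 0.14. The difference was 0.19 without USP8ff replicate 2 and 0.47 without replicate 1. Fdps, farnesyl pyrophosphate synthase, had 2.19 and 2.32 in USP8ff_CD4Cre, against 2.28 and 2.09 in USP8ff, with differences of 0.069 and -0.051 on its 2 kept probes.

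From squalene onward, 9 enzymes were measured, 5 with positive and 4 with negative differences between genotypes (median 0.011). Within USP8ff, 8 of the 9 were lower in replicate 2 than in replicate 1 (median -0.34). Among the 8, Sc5d (-0.041) and Dhcr7 (-0.080) hardly differed, and their further probes read 0.47 and 0.11 higher in replicate 2. Fdft1, squalene synthase and the first step committed to sterols, had 0.37 and 0.50 in USP8ff_CD4Cre, against 0.57 and 0.28 in USP8ff. Sqle, squalene epoxidase and a rate-limiting step, had 1.01 and 1.13 in USP8ff_CD4Cre, against 1.03 and 0.25 in USP8ff (mm9, chromosome 15, 59162384 to 59162443). USP8ff replicate 2 thus stood alone, at 58.3% of replicate 1, while the other 3 arrays lay within 0.11 of each other. The genotype difference of Sqle was 0.43 ± 0.27 (adjusted p 0.73 in limma). It became 0.036 when USP8ff replicate 2 was left out and 0.81 when replicate 1 was.

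Lss, which closes the ring to lanosterol, had -1.68 and -1.88 in USP8ff_CD4Cre, against -1.57 and -1.97 in USP8ff. Cyp51, the lanosterol demethylase, had -1.62 and -1.66, against -1.44 and -2.17 in USP8ff (mm9, chromosome 5, 4081471 to 4081530). Nsdhl, of the C4 demethylation complex, had -1.64 and -1.54, against -1.44 and -1.78 in USP8ff, and Hsd17b7, its ketoreductase, had -1.83 and -1.96, against -1.51 and -2.26 in USP8ff. In all 4 genes the USP8ff pools were the highest and the lowest arrays, with both USP8ff_CD4Cre pools between them, and the mean genotype differences lay between -0.010 (Hsd17b7) and 0.16 (Cyp51). USP8ff replicate 2 held 60.5% of the replicate 1 signal for Cyp51 and 59.6% for Hsd17b7.

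The last steps of the chain varied little on the probes that stood for them. Ebp, the sterol isomerase, had 4.97 and 4.97 in USP8ff_CD4Cre, against 4.93 and 4.95 in USP8ff, which did not overlap but differed by 0.029 ± 0.10. Sc5d, the C5 desaturase, had 1.82 and 1.77, against 1.90 and 1.86 in USP8ff. Dhcr7, which makes cholesterol from 7-dehydrocholesterol, had 3.98 and 3.91 in USP8ff_CD4Cre, against 4.15 and 4.07 in USP8ff, a difference of -0.16 ± 0.11 with an adjusted p of 0.73 in limma. Sc5d and Dhcr7 had negative differences on both of their kept probes.

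**Figure D4:**
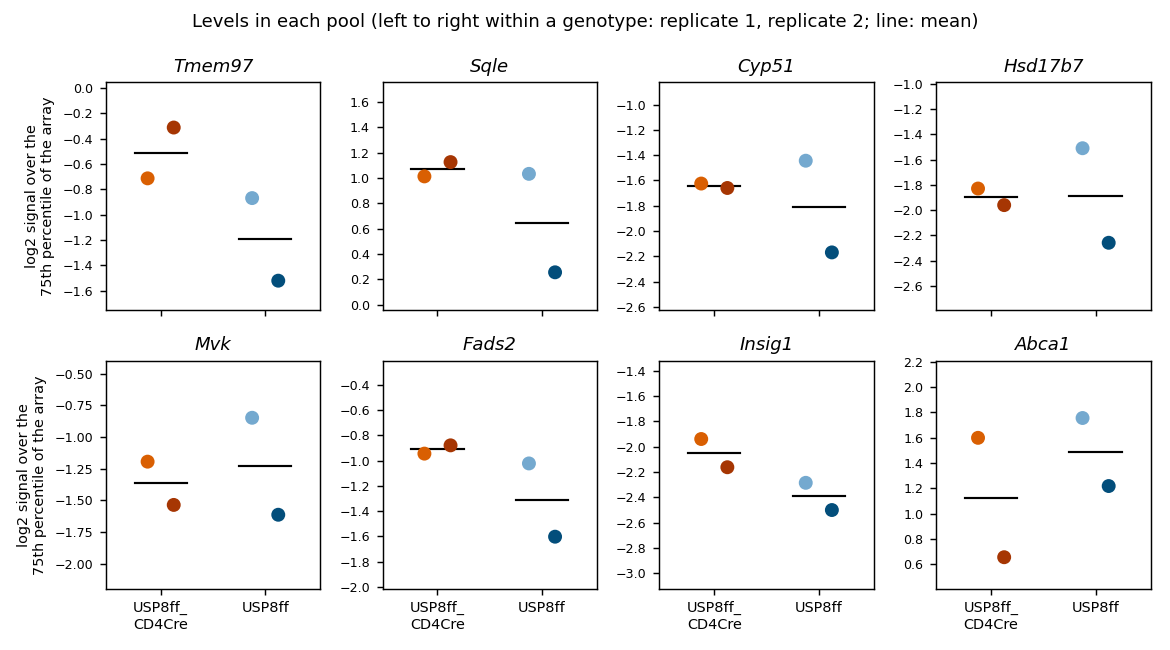
Log2 signal of 8 genes in each pool (orange for USP8ff_CD4Cre, blue for USP8ff; left point replicate 1, right point replicate 2; line, mean of the genotype), each panel spanning the same range of log2 units. For Sqle, Cyp51, Hsd17b7 and Fads2 the USP8ff_CD4Cre points lie close together and the USP8ff points far apart, while for Tmem97 and Insig1 the genotypes do not overlap.

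Of the genes that move sterol within the cell, Tmem97 had the largest difference of the 29. Tmem97 encodes a sterol-responsive membrane protein of the endoplasmic reticulum, also known as the sigma-2 receptor. Its signals were -0.71 and -0.31 in USP8ff_CD4Cre, against -0.87 and -1.52 in USP8ff, and the arrays did not overlap (mm9, chromosome 11, 78355704 to 78355763). The difference was 0.68 ± 0.26, a ratio of 1.61, with an unadjusted p of 0.046 and an adjusted p of 0.67 in limma. It was 0.36 when USP8ff replicate 2 was left out and 1.01 when replicate 1 was. Stard4, a cytosolic sterol carrier, had 0.60 and 0.54 in USP8ff_CD4Cre, against 0.58 and 0.31 in USP8ff, with USP8ff replicate 2 again the lowest array.

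All 4 measured fatty acid genes had positive differences (median 0.21), as did 54.8% of all genes, and 0 passed. Fasn, fatty acid synthase, had 4.86 and 4.91 in USP8ff_CD4Cre, against 4.69 and 4.90 in USP8ff, with replicate 1 the lower of the USP8ff pools. Scd2, a stearoyl-CoA desaturase, had 5.67 and 5.46, against 5.59 and 5.14 in USP8ff. Fads1, the delta-5 desaturase of polyunsaturated fatty acids, had 0.50 and 0.85, against 0.53 and 0.39 in USP8ff. In Scd2 and Fads1 the genotypes overlapped and USP8ff replicate 2 was the lowest. The difference of Scd2 turned to -0.022 without USP8ff replicate 2, and that of Fasn to -0.017 without USP8ff replicate 1. That of Fads1 stayed positive with each array left out, the smallest being 0.040 without USP8ff_CD4Cre replicate 2. Fads2, the delta-6 desaturase, had -0.95 and -0.88 in USP8ff_CD4Cre, against -1.02 and -1.60 in USP8ff. These did not overlap, so that leaving out an array cannot turn the sign. Its difference was 0.40 ± 0.21 (adjusted p 0.70 in limma). It became 0.11 when USP8ff replicate 2 was left out and 0.69 when replicate 1 was.

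The sterol efflux genes, which respond to high rather than low sterol, had negative differences with all arrays. Abca1 had 1.60 and 0.65 in USP8ff_CD4Cre, against 1.76 and 1.22 in USP8ff, and replicate 2 was the lower pool in both genotypes, at 52.0% of replicate 1 in USP8ff_CD4Cre and 68.9% in USP8ff. The genotypes overlapped, and the difference of -0.36 ± 0.35 was about the size of its error. A single array turned its sign, since it was 0.11 without USP8ff_CD4Cre replicate 2 and -0.83 without USP8ff_CD4Cre replicate 1. It was -0.091 without USP8ff replicate 1 and -0.63 without USP8ff replicate 2. Abcg1 had 4.48 and 4.35 in USP8ff_CD4Cre, against 4.51 and 4.70 in USP8ff (mm9, chromosome 17, 31252580 to 31252639). Its arrays did not overlap, and the difference was -0.19 ± 0.12 with an adjusted p of 0.73 in limma. It ran from -0.097 without USP8ff replicate 2, and -0.13 without USP8ff_CD4Cre replicate 2, to -0.29 without USP8ff replicate 1. Macrophages express both genes. Of 13 macrophage and dendritic cell markers, 6 were measured, 5 of them with negative differences, and Csf1r, Adgre1 and Itgam did not pass the filter on dim probes. The summed linear signal of the 6 was 1.46 and 1.82 in USP8ff_CD4Cre, against 2.41 and 2.68 in USP8ff. Ctss carries most of that difference, with -1.92 and -2.29 in USP8ff_CD4Cre, against -0.37 and 0.084 in USP8ff. The log2 difference was -1.96 for Ctss and -1.09 for Mpeg1. It was -0.19 for Lyz2, -0.12 for Cd68, -0.034 for Marco and 0.25 for C1qb. The part of such cells in the Abca1 and Abcg1 values was not tested. Of 5 B cell markers 2 were measured, with sums of 6.08 and 5.17, against 6.62 and 6.16 in USP8ff, and of 6 stromal markers 2 were, with sums of 0.26 and 0.31, against 0.34 and 0.35. Of 5 markers of mature single-positive cells 4 were measured, with sums of 101 and 112 in USP8ff_CD4Cre, against 89.8 and 96.4 in USP8ff. Klf2, the brightest, makes up most of that sum, and the other 3 had negative differences, so that the median over the 4 was -0.65. Ccr7 had -1.29 and -1.66 in USP8ff_CD4Cre, against -0.51 and 0.030 in USP8ff, and Il7r was not well above background in USP8ff_CD4Cre, against -2.23 and -1.66 in USP8ff.

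Other genes of sterol and lipid metabolism were, on balance, not lower in USP8ff replicate 2. Of 25 listed, 23 were measured, 10 with positive and 13 with negative differences between genotypes (median -0.039), and 0 passed. Within USP8ff, 9 of the 23 were lower in replicate 2 and the median was 0.12. Acaca, acetyl-CoA carboxylase and the first step of fatty acid synthesis, had the smallest p, with -2.43 and -2.04 in USP8ff_CD4Cre, against -2.81 and -2.90 in USP8ff, and a difference of 0.62 ± 0.16 (adjusted p 0.66 in limma). Aacs, acetoacetyl-CoA synthetase, had 2.30 and 2.28 in USP8ff_CD4Cre, against 1.97 and 2.11 in USP8ff, a difference of 0.25 ± 0.11 with an adjusted p of 0.69 in limma. Msmo1, the C4 methyl oxidase of the cholesterol chain, had 2.19 and 1.91 in USP8ff_CD4Cre, against 2.44 and 2.24 in USP8ff, a difference of -0.29 ± 0.15 with an adjusted p of 0.70 in limma.

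Proliferation genes also varied from array to array, most of them lowest in USP8ff replicate 2 as well, but with the USP8ff_CD4Cre pools in another order. All 14 of a fixed list, Mki67 and Top2a among them, were measured and had positive differences (median 0.52), as did 54.8% of all genes. At an unadjusted p under 0.05 in limma 9 of them were higher, against 3.97% of all genes, and 0 passed adjustment. The arrays of the 2 genotypes did not overlap for 13 of the 14, all higher in USP8ff_CD4Cre, against 24.3% of all genes. Their summed linear signal was 408 and 520 in USP8ff_CD4Cre, against 357 and 317 in USP8ff. USP8ff replicate 2 was below replicate 1 for 13 of the 14 (median -0.17), against 48.8% of all genes and 22 of the 29 sterol and lipid genes. It was the lowest of the 4 arrays for 13 of the 14, against 29.0% of all genes and 19 of the 29. USP8ff_CD4Cre replicate 2, in contrast, was above replicate 1 for all 14 (median 0.36), against 50.5% of all genes, where 18 of the 29 were below. The part of proliferation in the sterol gene values was not tested.

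Read without USP8ff replicate 2, the genotype comparison of the 29 genes had 13 positive differences and a median of -0.014. Without USP8ff replicate 1 it had 22 positive differences and a median of 0.20. For the 16 enzymes between acetyl-CoA and cholesterol the median was 0.024 with all arrays, -0.12 without USP8ff replicate 2 and 0.19 without USP8ff replicate 1, so that the direction of the list turned with the choice of USP8ff pool. Limma called 0 of the 29 genes in either case. Among the 78 probes of the authors' deposited table were 0 probes of these genes.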

How the data were processed

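Per the labels, Cy3-labelled cRNA was made from 500 ng of RNA of sorted thymocytes. Per the file headers, background subtraction and detrending within each array were done in Feature Extraction 10.7.3.1, and probe positions are on mm9. The deposited scanner files hold spot intensities without normalization across arrays. The authors' deposited table gives a fold (a linear ratio) and a p-value for 78 probes, with its software and test not stated there. One more table with 4 sample columns whose names match no label was not used.

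Log2 processed signals were taken minus each array's 75th percentile over non-control spots. Outlier spots were left out (17 of 41174 probes), spots of a probe were averaged, and a probe was kept where the scanner flag for signal well above background held on both arrays of either genotype (19038, 46.2%). The kept probe with the highest mean stood for a gene. Accessions named 26690 probes through RefSeq, and 14484 kept the design name. Genotypes were compared in limma 3.58.1 (R 4.3.3; lmFit, eBayes, no block) over 13062 genes with Benjamini-Hochberg adjustment. The fit was also run on simulated arrays that gave every gene the same spread, which cannot show how well it does on these arrays. The number of arrays limits the precision, and no spot was saturated. The genes and lists were chosen with earlier results of these data known. Every listed gene is accounted for, with fit statistics for the 8 with the smallest p among the 29 and, in part, for others, which were chosen after their values were seen. Of the other lipid genes, the 4 with the smallest p were to be named, and 1 of them is not reported here. Whether exons or UTRs carry the probes is not annotated in the sources used here. Alternatives were quantile or median scaling, normexp background (offset 50), other filters and probe rules, a replicate block, an eBayes trend, outlier spots kept, and each array left out.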

Additional observations from a re-analysis of the deposited data

How the results depend on the processing

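Limma called 0 of the 29 genes and 0 genes of the whole array under every alternative run. The smallest adjusted p among the 29 ranged from 0.45, with the replicate block, to 0.9997, without USP8ff_CD4Cre replicate 2. At an unadjusted p under 0.05 the main comparison had 970 of 13062 genes. Replicate numbers are shared between genotypes, but with 2 pairs and no label that ties a number to a litter they were not taken to pair the pools. Replicate 1 minus replicate 2 correlated at 0.32 between genotypes across 13062 genes, and the fit with the replicate block gave 0 calls. In this balanced design the block cannot change a difference between genotypes, so its 18 positive differences are the same by construction. With arrays left out in turn, the median difference of the 29 genes ranged from -0.014 to 0.20, that of the 16 synthesis enzymes from -0.12 to 0.19, and the positive differences from 13 to 22. The extremes of each came without USP8ff replicate 2 and without USP8ff replicate 1. Counted by probe, 30 of 49 kept probes had positive differences. The median of USP8ff replicate 2 minus replicate 1 ranged from -0.35 (median scaling) to -0.22 (mean of the kept probes). The 8 genes with the smallest p, chosen on these data, kept their direction under every alternative run. For Tmem97, Idi1, Insig1, Fads2, Abcg1 and Dhcr7, whose arrays did not overlap, leaving out an array cannot turn the sign. Of the 29 genes, 2 changed sign without USP8ff_CD4Cre replicate 1 and 7 without USP8ff_CD4Cre replicate 2. Without USP8ff replicate 1 the count was 6, and without USP8ff replicate 2 it was 9. A lone array left in a genotype was assumed to vary like the other genotype. Dim probes limit the reading of Insig1, Cyp51, Nsdhl and Hsd17b7, and Scd1 could not be measured.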
